A study of Mus musculus with 2 samples.

Results

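The regions described here are the FLAG-HLF peaks that lay inside protein-coding genes at a middle depth, more than 1 kb and at most 20 kb from the nearest end of any protein-coding gene. They were chosen by position alone. The centre of each 400 bp peak had to fall in the body of a protein-coding gene on chromosomes 1 to 19. There were 857 such peaks among the 3153 in the deposited list, or 27.2%. A further 8 peaks on chromosome X met the same distances and were not counted. The list came from 1 anti-FLAG chromatin immunoprecipitation sequencing library of Lin-Sca-1+c-Kit+ cells, which are enriched for blood stem and progenitor cells. They came from C57BL/6 mice of 8 to 10 weeks, and the labels give the tissue as blood. The cells carried 3xFLAG-HLF in the MigR1 retrovirus and spent 5 days in medium with 50 ng/ml SCF, 5 ng/ml IL-3, and 10 ng/ml each of Flt3L and IL-7. The protein was therefore introduced by a vector and was not the cells' own HLF. The empty-vector library, from cells kept in the same way, was not analysed here, so no peak was compared with a control. The list holds positions only, and the depth and the strength of each peak are unknown. With 1 library, every interval and p-value below covers counting error over peaks, which were treated as independent, and not the spread between cultures. Expression of cell type markers was not measured.

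HLF, short for hepatic leukemia factor, belongs with DBP and TEF to the PAR group of bZIP transcription factors. These proteins bind DNA as dimers, each partner contacting one arm of a short palindrome-like site. The C/EBP factors and NFIL3, other bZIP proteins, recognise related sites. HLF is known in blood for its role in stem cells, and a fusion of it with E2A occurs in acute lymphoblastic leukemia. The first part of a gene body commonly holds introns with enhancers, and many genes have further transcription starts there.

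At some of these peaks an annotated transcription start lay under the peak or just beside it. RefSeq promoter windows (GRCm38.p6, the same chromosome coordinates as mm10) gave the sequence. Of the peaks, 25 shared 100 bases or more with a window, which runs from 250 bases before a start to 50 after it, and 26 windows were covered in this way. Of these windows, 21 belonged to the host gene, as starts inside its own body, and 5 to another gene. The sequences of the Per1 and Plppr2 windows are shown as examples. Both hold a bZIP-type site within 10 bp of the peak centre, as do those of Fam78a, Bmf, Nt5c3 and Aldh3b1. Per1 encodes a repressor of the circadian clock, and Plppr2 a membrane protein of the phospholipid phosphatase-related family. Only bases before the start that lie in the peak are given, 5′ to 3′ on the gene's strand, with matches to TTACGTAA, TTATGTAA or TTGCNNAA on either strand in capitals. The Per1 stretch is chr11:69098730-69098948 on the plus strand and the Plppr2 stretch is chr9:21936760-21937009 on the plus strand.
Per1: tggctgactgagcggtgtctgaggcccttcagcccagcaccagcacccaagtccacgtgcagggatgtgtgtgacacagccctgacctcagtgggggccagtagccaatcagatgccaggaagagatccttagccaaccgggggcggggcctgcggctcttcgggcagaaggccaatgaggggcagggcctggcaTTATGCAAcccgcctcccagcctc
Plppr2: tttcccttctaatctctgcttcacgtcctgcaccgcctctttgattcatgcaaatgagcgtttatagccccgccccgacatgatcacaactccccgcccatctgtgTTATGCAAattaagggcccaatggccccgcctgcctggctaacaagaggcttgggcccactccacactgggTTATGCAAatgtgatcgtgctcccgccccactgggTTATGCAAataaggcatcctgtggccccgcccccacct

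The Per1 stretch holds 1 capitalised site, whose middle coincided with the peak centre (offset 0 bp). The Plppr2 stretch holds 3 copies of the same 8 letters, TTATGCAA, at offsets of -80, -8 and 26 bp from the centre. TTATGCAA joins an arm of the PAR type to an arm of the C/EBP type. In Plppr2 the bases that follow also make the octamer ATGCAAAT, so those letters overlap a second motif. Shorter stretches around the sites of 5 more peaks are given to show how the letters differ. Bmf encodes a pro-apoptotic BH3-only protein, Nt5c3 a pyrimidine nucleotidase, Fgd3 a guanine nucleotide exchange factor for CDC42, and Srgap1 a GTPase-activating protein of the SLIT-ROBO pathway. The Srgap1 peak covers the start of a noncoding gene, Gm46183, inside Srgap1. The stretches are chr2:118547620-118547660 (Bmf, minus strand), chr2:32084844-32084884 (Fam78a, minus), chr6:56901942-56901982 (Nt5c3, minus), chr13:49309241-49309281 (Fgd3, minus) and chr10:121796261-121796301 (Gm46183 in Srgap1, plus).
Bmf: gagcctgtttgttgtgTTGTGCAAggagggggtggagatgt
Fam78a: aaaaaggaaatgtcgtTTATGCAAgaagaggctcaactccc
Nt5c3: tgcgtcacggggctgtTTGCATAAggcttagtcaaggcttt
Fgd3: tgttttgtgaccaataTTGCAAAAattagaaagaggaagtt
Srgap1 (Gm46183): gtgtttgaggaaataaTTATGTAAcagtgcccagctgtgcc

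Sites of the PAR and C/EBP type were searched on both strands of the 26 windows of 300 bases and, for comparison, of all 32851 windows in the table. The PAR palindrome TTACGTAA was in 0 of the 26 windows, which allows a share of up to 11.5% (the limit is 3 counts of the total), and in 0.119% of all windows. TTATGTAA was in 2 (7.69%, exact 95% interval 0.946 to 25.1%), those of 4931406C07Rik and Gm46183, against 0.938% of all windows. TTGCGTAA was in 0 of 26 and in 0.167% of all. At the 128 windows shared with peaks within 1 kb of a gene end, the counts were 0 for TTACGTAA, 8 for TTATGTAA (6.25%) and 9 for TTGCGTAA (7.03%). TTATGCAA, tallied after its recurrence was seen, was in 5 windows (19.2%), those of Per1, Plppr2, Fam78a, Nt5c3 and Aldh3b1, against 0.743% of all windows and 8 of the 128 at gene ends (6.25%). Windows are named here for the letters they hold, after these were seen. The looser TTGCNNAA, which covers TTGCGTAA and, on the opposite strand, TTATGCAA, was in 13 (50.0%, 29.9 to 70.1%), against 10.8% of all. Among the 128 windows at gene ends it was in 40 (31.2%, 23.4 to 40.04%).

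Letters typical of other factors were searched too. The ETS-type GGAAGT was in 6 of the 26 windows (23.1%) and in 23.8% of all. The AP-1-type TGANTCA was in 2 (7.69%) and in 7.81% of all. The E-box CACGTG was in 1 (3.85%), that of Per1, and in 7.15% of all. The octamer ATGCAAAT, which overlaps the sites of Plppr2, was in 2 windows (7.69%, 0.946 to 25.1%), those of Plppr2 and Fgd3. Its share of all windows, 1.74%, lies inside that interval. At the 128 windows at gene ends the shares were 38.3% for GGAAGT, 3.91% for TGANTCA, 10.9% for CACGTG and 2.34% for ATGCAAAT. In all, 14 of the windows held 17 of the capitalised kinds of site inside the peak, and 13 of the 17 lay within 50 bp of the peak centre (median offset 26 bp without regard to side). The windows mostly cover the centre of the peak, so this closeness is a description and was not tested. No genome sequence was used, so the peaks away from annotated starts could not be searched.

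**Figure D1:**
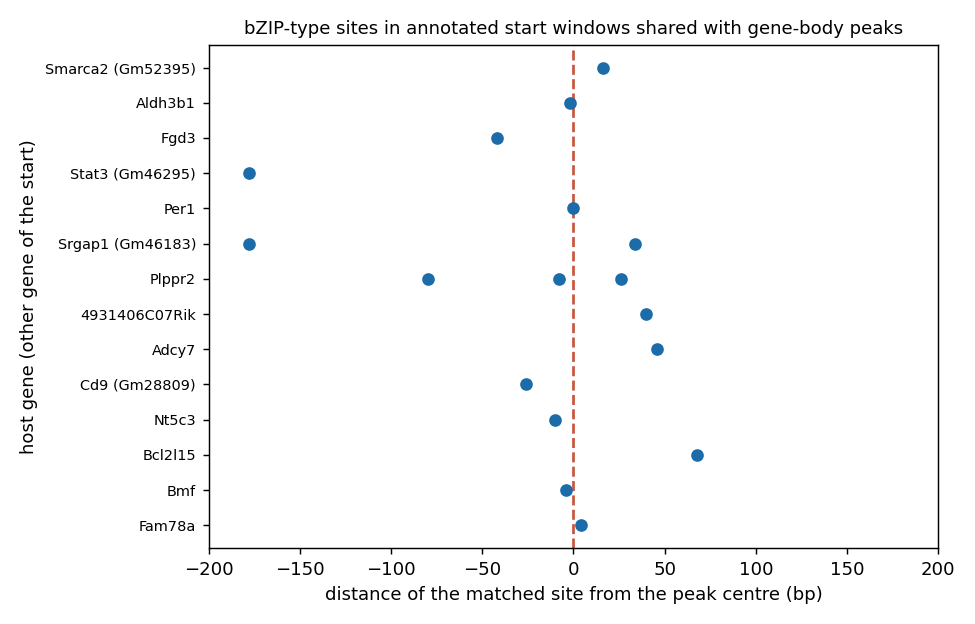
Offset of each matched bZIP-type site from the peak centre in bp (x axis), for the 14 start windows that hold a site inside the peak, named by host gene with the gene of the start in brackets where it differs. Each point is 1 of 17 sites; 13 lie within 50 bp of the centre (dashed line), and those of Per1, Bmf, Fam78a and Aldh3b1 within 4 bp.

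An annotated start lay near these peaks more often than near deeper gene-body peaks. Of the 843 peaks on chromosomes with promoter windows, 68 had an annotated start of some gene within 1 kb (8.07%, exact 95% interval 6.32 to 10.1%). Gene-body peaks more than 20 kb inside had 20 of 671 (2.98%, 1.83 to 4.57%). The odds ratio of 2.86 (1.72 to 4.75) passed Fisher's exact test at p = 2.05e-05 (two-sided; Benjamini-Hochberg adjusted p = 0.000103 over 5 comparisons between groups of peaks). Gene bodies also hold more starts near their ends than deep inside, so the density per base was compared within the 1 to 20 kb zone. Bases near a start and bases farther away were not matched there for side or for distance to the gene end. Bases within 1 kb of a start carried 8.32 peaks per Mb (exact Poisson interval 6.46 to 10.6), and bases farther away 2.12 (1.97 to 2.27). The ratio was 3.93 (3.02 to 5.04; exact conditional binomial test, two-sided, p = 1.28e-19, adjusted p = 8.99e-19 over 7 density tests). The start table does not hold every gene, and a peak whose host gene is missing from it counts here as having no start nearby. Among the 684 peaks in 1 gene that the table holds, 65 (9.50%, 7.41 to 11.95%) had a listed start within 1 kb and 619 had none, against 19 of 543 deeper peaks (3.50%). The odds ratio was then 2.90 (1.71 to 4.89), and the density ratio 4.06 (3.09 to 5.25). More than 20 kb inside genes of known strand, peaks were also denser near starts. On the 5′ side there, bases over 1 kb from a start made up 212.6 of 214.3 Mb and held 301 of 310 peaks. On the 3′ side they made up 212.0 of 213.8 Mb and held 223 of 233 peaks. Whether the density ratio differed between the depths was not tested.

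The peaks lay on the 5′ side of their genes more often than on the 3′ side. The side could be set for 684 peaks that lay in 1 gene of known strand, and 446 of them (65.2%, 61.5 to 68.8%) were nearer to the 5′ end. Deeper gene-body peaks were also on the 5′ side more often than not, at 310 of 543 (57.1%, 52.8 to 61.3%). The odds ratio between the 2 groups was 1.41 (1.12 to 1.78; Fisher's exact test, two-sided, p = 0.00381, adjusted p = 0.00954). Without peaks within 1 kb of an annotated start it was 1.26 (0.995 to 1.60, Fisher's exact p = 0.0599), and for peaks more than 5 kb inside 1.09 (0.840 to 1.40, Fisher's exact p = 0.556).

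The excess on the 5′ side was largest in the bands closest to a gene end. Distance is to the nearest end of any protein-coding gene, so some of these peaks lay farther from the ends of their own host. Between 1 and 2 kb, the 5′ side carried 77 peaks at 5.53 per Mb of gene body (exact Poisson interval 4.37 to 6.92), and the 3′ side 20 at 1.45 (0.885 to 2.24). This is a ratio of 3.82 (2.31 to 6.60; exact conditional binomial test, p = 4.70e-09, adjusted p = 1.47e-08). Between 2 and 5 kb there were 116 against 43 peaks, at 3.28 and 1.22 per Mb, a ratio of 2.68 (1.87 to 3.90; exact, p = 6.31e-09, adjusted p = 1.47e-08). Between 5 and 10 kb the ratio was 1.66 (1.22 to 2.28; exact, p = 0.000860, adjusted p = 0.00151), from 115 against 69 peaks. In the next bands the difference did not pass the test: the ratio was 1.37 (0.941 to 1.99; adjusted exact p = 0.122) at 10 to 15 kb and 1.24 (0.857 to 1.82; adjusted exact p = 0.238) at 15 to 20 kb. More than 20 kb inside, with more peaks (310 against 233), a similar ratio of 1.33 (1.12 to 1.58; exact, unadjusted p = 0.00110) passed it. The 5′ density at 10 to 15 and 15 to 20 kb was lower than at 1 to 2 kb, at 2.19 and 2.70 per Mb. The 3′ density in the same bands was 1.60 (1.20 to 2.10) and 2.17 (1.63 to 2.83). These intervals overlapped those of the 3′ side at 1 to 2 kb (0.885 to 2.24) and 2 to 5 kb (0.884 to 1.65). Differences between bands of 1 side were not tested. Restricted to bases more than 1 kb from any annotated start, the ratio at 1 to 2 kb was 3.01 (1.77 to 5.32), from 52 against 20 peaks.

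**Figure D2:**
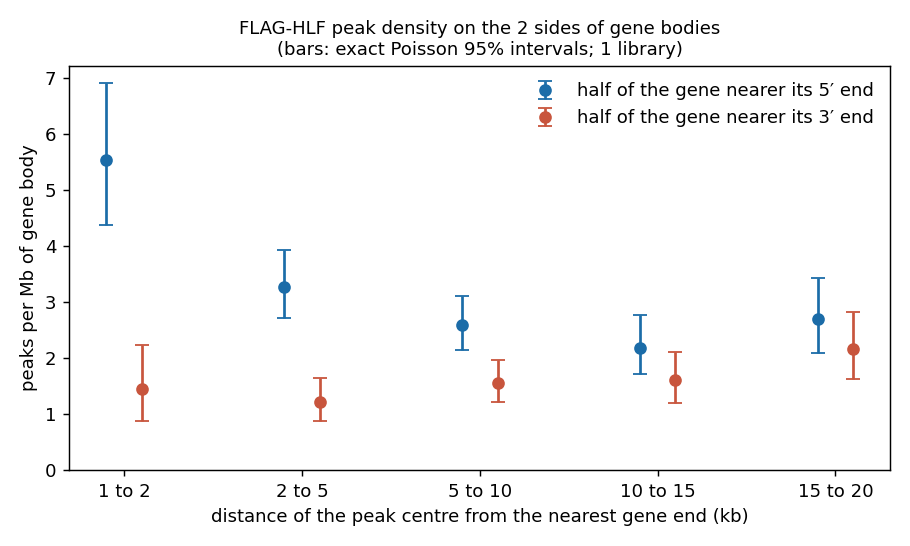
Peaks per Mb of gene body (y axis) against distance of the peak centre from the nearest gene end in kb (x axis), for the side of the gene nearer its 5′ end (blue) and nearer its 3′ end (red); bars are exact Poisson 95% intervals from 1 library. The intervals of the sides are apart up to 10 kb (5.53 against 1.45, 3.28 against 1.22 and 2.60 against 1.56 per Mb) and overlap from 10 kb on.

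Taking both sides together, the density within the zone was highest at 1 to 2 kb, and from 2 to 20 kb the intervals of the bands overlapped. It was 3.34 per Mb (2.77 to 3.99) at 1 to 2 kb, 2.28 (1.98 to 2.61) at 2 to 5 kb, 2.05 at 5 to 10 kb, 1.92 at 10 to 15 kb and 2.19 (1.84 to 2.58) at 15 to 20 kb. For scale, gene-body bases within 1 kb of an end carried 4.26 per Mb, those 20 to 50 kb inside 1.70 and those deeper still 0.981. The density at 1 to 5 kb was 1.27 times that at 10 to 20 kb (1.08 to 1.49; exact conditional binomial test, p = 0.00341, adjusted p = 0.00478). In genes of at least 40 kb alone this ratio was 1.08 (0.855 to 1.36; exact p = 0.523). The median distance of a peak to the nearest gene end was 6.95 kb, with quartiles at 3.10 and 12.5 kb. Just inside the inner limit lay the peaks of Ttc33 and Nfx1, at 1009 and 1011 bp, and just outside it those of Epha10 and Eif4a1, at 983 and 988 bp. At the outer limit the peaks of Slc2a3 and Nedd9 were members at 19894 and 19977 bp, while those of Syne3 and Notch1 were not, at 20006 and 20031 bp.

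The 857 peaks fell in 816 genes, which is 4.46% of the 18295 protein-coding autosomal genes longer than 2 kb. The share differed with gene length: 1.08% of genes up to 10 kb held such a peak, 4.54% of those of 10 to 40 kb, 8.19% of those of 40 to 100 kb and 6.01% of longer ones, below the class before it. Counted per base of the 1 to 20 kb zone the order differed, with 3.17 peaks per Mb (2.37 to 4.14) in the shortest class, 2.45 and 2.32 in the classes between and 1.59 (1.35 to 1.87) in genes over 100 kb. The host genes had a median length of 41.5 kb (quartiles 23.1 and 77.6 kb). Of the peaks, 846 lay in 1 protein-coding gene and 11 in a pair of overlapping ones. A centre in a noncoding gene as well was found for 47 peaks (5.48%), against 7.87% of deeper gene-body peaks (odds ratio 0.679, 0.454 to 1.02; adjusted Fisher's exact p = 0.107).

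Most host genes held a single peak of this kind, 48 held 2 and 2 held 3. The pair with 3 were Trib1 and Cdc27. Trib1, encoding a pseudokinase that directs C/EBP-alpha to degradation, is only 8.45 kb long (gene ID 211770; chr15:59648654-59657099), and its peaks lay 1.97, 3.73 and 4.08 kb from the nearer end. The second and the third, with centres 632 bp apart, were the closest pair of all the 857. Cdc27 encodes a subunit of the anaphase-promoting complex, and its 3 peaks lay 15.8, 22.3 and 29.8 kb from the 5′ end of a 48.1 kb gene (chr11:104502524-104550620), 6.49 and 7.53 kb apart. The middle peak lay more than 20 kb from both ends of Cdc27 itself (22.3 and 25.8 kb). It is counted because the end of an overlapping gene was 17.7 kb away. The next closest pairs were in Panx1, a channel gene, at 675 bp, and in Fcer1g, encoding the signalling chain of Fc receptors, at 748 bp. Across the 50 genes with 2 or 3 peaks the smallest gap had a median of 6.23 kb and a range of 0.632 to 149 kb. In 24 of them it was under 5 kb.

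Some host genes had peaks elsewhere too. Of the 816 hosts, 219 (26.8%) also had a peak at another position relative to the gene. There were 26 with a peak within 1 kb of their own ends and 76 with a peak deeper than 20 kb. A peak between 1 and 20 kb outside the gene was found for 131, and some hosts are in more than 1 of these groups. A peak outside a host was counted even where it was itself among the 857, in a neighbouring gene. The share of all protein-coding genes with peaks at such positions was not counted. Hosts were also longer than the genes they were drawn from (median 41.5 against 21.5 kb). These counts therefore do not show whether hosts differ from other genes. Another peak of any class lay within 25 kb of 195 of the 857 peaks (22.8%, 19.99 to 25.7%). This did not differ detectably from deeper gene-body peaks at 20.6% (odds ratio 1.14, 0.890 to 1.45; Fisher's exact p = 0.323, adjusted p = 0.404) or from peaks 1 to 20 kb outside genes at 22.8% (odds ratio 0.999, 0.782 to 1.27; Fisher's exact p = 1, adjusted p = 1).

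Which genes held the peaks was described with 18 gene lists, each set beside the 4.46% of all genes and beside the number that the length classes alone would give. No test was made on the lists, because they were chosen with earlier results of these data known. Over all lists 56 of 542 genes held a peak (10.3%), where their lengths would give 26.9. Of the 66 peaks of list genes, 48 lay in genes of known strand. Of these, 39 (81.2%) were nearer the 5′ end, against 446 of 684 (65.2%) over all the peaks. The plot of list genes up to 60 kb long shows this placement.

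**Figure D3:**
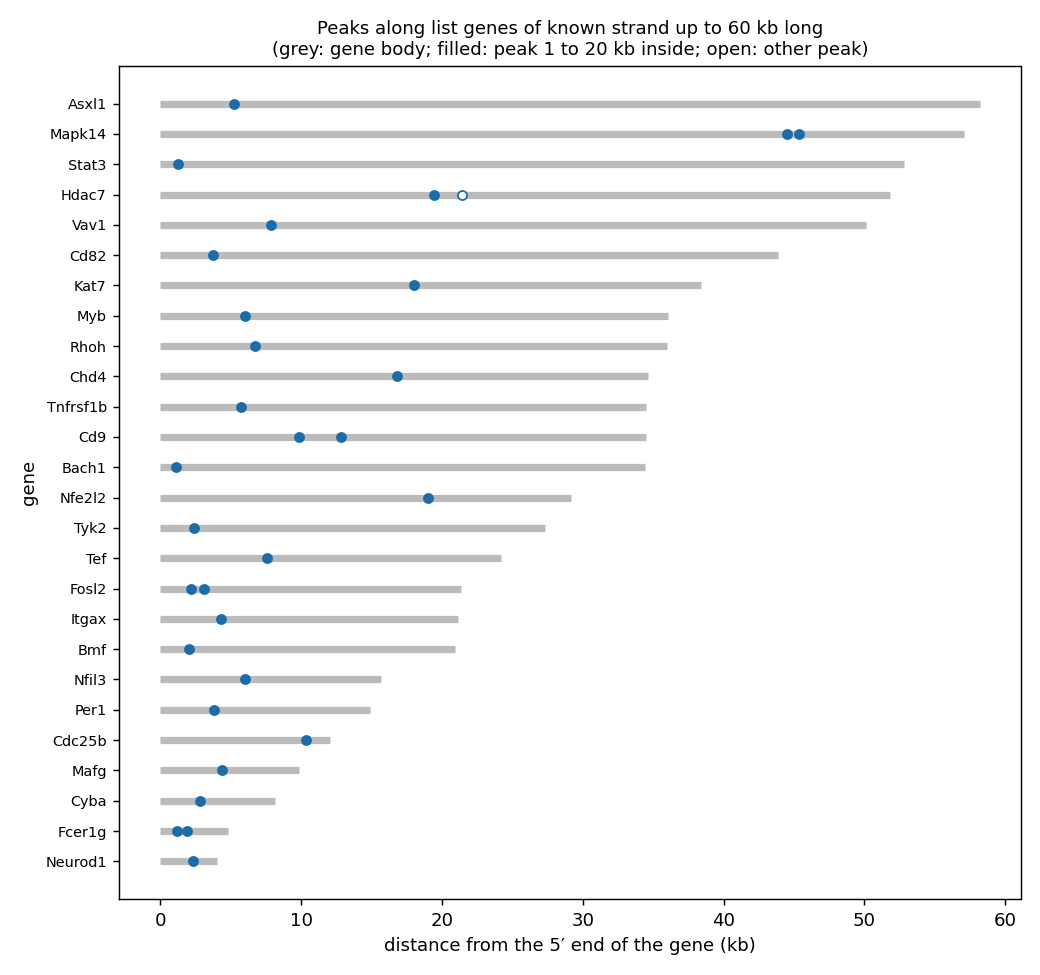
Position of peaks along 26 list genes of known strand and at most 60 kb long; the x axis is distance from the 5′ end in kb, grey bars are gene bodies, filled points are peaks 1 to 20 kb inside and the open point is a deeper peak of Hdac7. Most points lie to the left, as in Stat3 (1.22 kb), Tyk2 (2.40 kb) and Myb (6.00 kb); those of Mapk14 (44.5 and 45.4 kb) and Cdc25b (10.3 kb) lie near the 3′ end.

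The integrin and adhesion list had the highest share, 7 of 28 genes (25%, exact interval 10.7 to 44.9%; 1.72 from length). Itgb2 and Itgax encode chains of leukocyte integrins and are also on the myeloid list. The Itgb2 peak lay 1.70 kb inside the gene, beside another peak at 0.751 kb, and the Itgax peak 4.28 kb from the 5′ end. Itga6, encoding a laminin receptor chain, had 1 peak at 14.9 kb from the nearer end. Pecam1, an adhesion molecule of endothelium, platelets and leukocytes, had 2, at 12.5 and 16.8 kb. Among membrane proteins of the tetraspanin family, Cd9 had 2 peaks at 9.85 and 12.8 kb from the 5′ end and Cd82 had 1 at 3.74 kb. Cd47, the signal that restrains phagocytosis, had 1 at 3.71 kb, and its receptor gene Sirpa, on the myeloid list, had 1 at 1.03 kb from the nearer end.

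Granulocyte and monocyte genes held peaks in 7 of 35 (20%, 8.44 to 36.9%; 1.23 from length). Besides Itgb2, Itgax and Sirpa these were Spi1, Trib1, Fcer1g and Cyba. Spi1 encodes PU.1, a master regulator of myeloid and B cell development, and its peak lay 14.3 kb from the nearer end. Fcer1g, only 4.78 kb long, had 2 peaks at 1.17 and 1.91 kb from the 5′ end. Cyba, encoding a subunit of the phagocyte NADPH oxidase, had 1 at 2.78 kb.

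B lineage genes held peaks in 5 of 30 (16.7%, 5.64 to 34.7%; 1.502 from length). Pax5, the factor that commits cells to the B lineage, had 1 at 6.21 kb from the 5′ end of its 186 kb body, and that centre also lay in the noncoding gene 5730488B01Rik. Ikzf3, encoding Aiolos, had 2, at 12.02 and 16.9 kb from the nearer end. The Foxo1 peak (18.1 kb) and the Bach2 peak (10.6 kb) were measured from the 3′ end. Foxo1 also had a deeper peak, 37.5 kb from the 5′ end. Lyn, a SRC-family kinase gene, had 1 at 3.82 kb from the nearer end. Of the T lineage list 1 of 29 held a peak (3.45%, near the general share). Of the NK and innate lymphoid list 2 of 24 did (8.33%, against 0.994 genes from length), Nfil3 and Zbtb16.

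Stem and progenitor regulators held peaks in 5 of 38 (13.2%, 4.41 to 28.1%; 1.90 from length). Flt3, the receptor for one of the cytokines in the medium, had 2 at 7.64 and 11.4 kb from its 5′ end (gene ID 14255; chr5:147330741-147400489). Myb, a factor needed for blood progenitors, had 1 at 6.00 kb from the 5′ end. The Runx1 peak lay 6.46 kb from the 3′ end of a 225 kb gene, with a second, deeper peak at 110 kb. Pbx3, a partner of HOX proteins, had 1 at 11.9 kb, and Zbtb16, encoding PLZF, 1 at 16.3 kb from the nearer end. Zbtb16 also had a deeper peak at 21.5 kb. Megakaryocyte and erythroid genes held peaks in 3 of 21 (14.3%, 3.05 to 36.3%; 0.934 from length), all of them bZIP genes that are counted on the next list too.

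The bZIP list of AP-1, ATF, MAF and C/EBP genes held peaks in 6 of 38 (15.8%, 6.02 to 31.3%; 1.33 from length). Fosl2, an AP-1 subunit gene, had 2 at 2.19 and 3.12 kb from the 5′ end. Atf7 had 2, one at each end of the gene, 7.61 kb from the 5′ end and 2.13 kb from the 3′ end. Mafg and Bach1, which encode partners in one dimer, had 1 each at 4.36 and 1.10 kb from the 5′ end. Nfe2l2, encoding the oxidative stress factor NRF2, had 1 at 10.2 kb from the 3′ end. Bach2 was named above. Genes of 2 kb or less cannot hold such a peak and are not counted in any list.

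Clock and PAR bZIP genes held peaks in 3 of 26 (11.5%, 2.45 to 30.2%; 1.25 from length). Tef, a paralogue of HLF, had 1 at 7.56 kb from its 5′ end (gene ID 21685; chr15:81802673-81826863). Nfil3, a bZIP repressor that competes for PAR sites, had 1 at 5.98 kb from its 5′ end. The Per1 peak, whose sequence is printed above, lay 3.82 kb from the 5′ end (gene ID 18626; chr11:69095108-69109965) and 20 bp from an annotated start of the gene. Dbp, Hlf and the CRY genes held none.

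Among cytokine receptor and JAK-STAT genes 5 of 40 held a peak (12.5%, 4.19 to 26.8%; 2.09 from length). Stat3, a signal transducer downstream of many cytokines, had 1 at 1.22 kb from the 5′ end, shared with the start of the noncoding gene Gm46295. Tyk2 and Jak2, kinases of the same pathway, had 1 each at 2.40 and 19.5 kb from the 5′ end. Tnfrsf1b, a TNF receptor gene, had 1 at 5.74 kb. PI3K and small GTPase regulators held peaks in 6 of 42 (14.3%, 5.43 to 28.5%; 2.73 from length). All of them were nearer the 5′ end: Dock10 at 1.79 kb, Pik3r1 at 2.10, Inpp5d at 4.64, Rhoh at 6.75, Vav1 at 7.88 and Rasa2 at 19.1 kb. Inpp5d encodes the lipid phosphatase SHIP1, Vav1 an exchange factor of blood cells, and Rhoh a GTPase of haematopoietic cells.

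Chromatin regulators held peaks in 6 of 54 (11.1%, 4.19 to 22.6%; 3.59 from length). Smarca2, an ATPase of the BAF complex, had 1 at 1.63 kb from the 5′ end and Asxl1, a Polycomb-associated factor, 1 at 5.25 kb. Kdm6b, a histone H3K27 demethylase gene, had 1 at 2.13 kb from the nearer end. Chd4, Kat7 and Hdac7 had 1 each at 16.8, 18.01 and 19.4 kb from the 5′ end, and Hdac7 also had a deeper peak at 21.4 kb. Nuclear receptor genes held peaks in 3 of 29 (10.3%, 2.19 to 27.4%; 1.54 from length): Ppard and Pparg, receptors of fatty acid derivatives, at 14.1 and 14.8 kb from the 5′ end, and Thra, a thyroid hormone receptor, 12.8 kb from the nearest gene end.

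The remaining lists were nearer to the general share. MAP kinase and phosphatase genes held peaks in 3 of 43 (6.98%; 2.43 from length), with 2 in Mapk14, encoding the kinase p38 alpha, 837 bp apart, and 1 each in the phosphatase genes Dusp4 (3.80 kb from the nearer end) and Dusp16 (15.6 kb from the 5′ end). Cell cycle genes held peaks in 2 of 40 (5.00%; 1.58 from length), Foxo1 and Cdc25b. Of the apoptosis list 1 of 32 held a peak (3.12%; 1.30 from length), Bmf, at 2.04 kb from the 5′ end and 45 bp from an annotated start of the gene. In the controls, 1 of 19 neuronal genes (5.26%; 0.995 from length), Neurod1, and 0 of 18 liver genes (up to 16.7% by the same 3 counts; 0.626 from length) held one. All intervals of the lists are wide. Some genes are counted on more than one list.

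**Figure D4:**
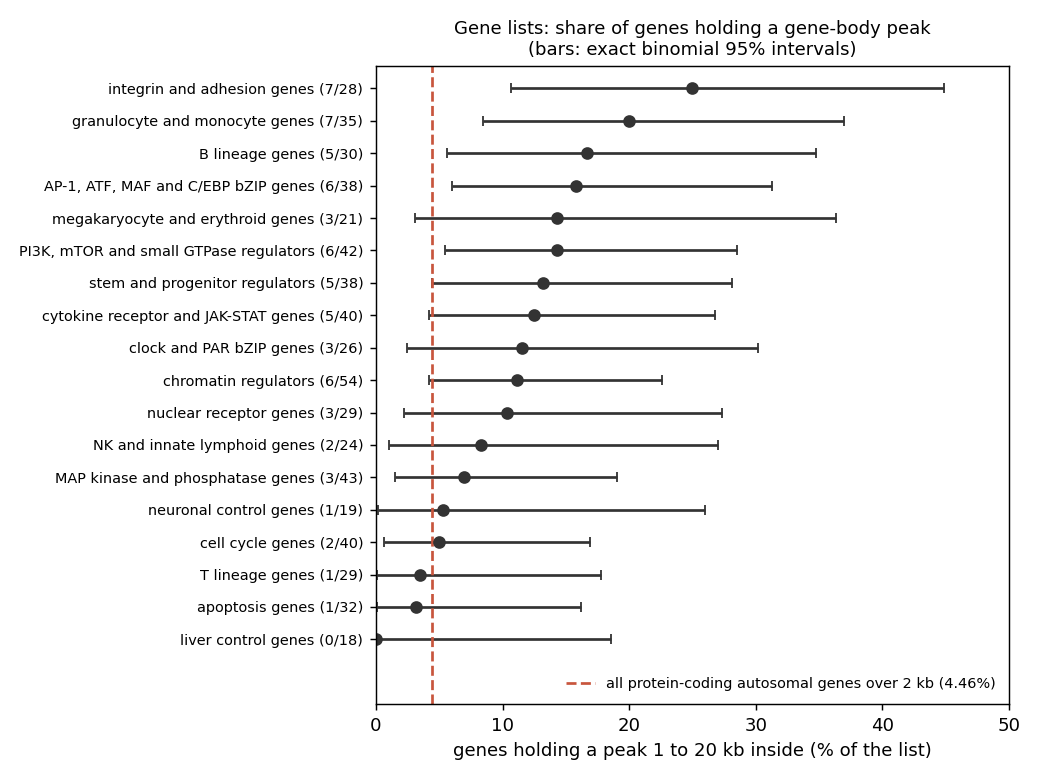
Share of each list's genes that hold a peak 1 to 20 kb inside (x axis, percent; bars are exact binomial 95% intervals), with the count over the number of genes in brackets; the dashed line is the 4.46% of all protein-coding autosomal genes over 2 kb. The integrin list is highest at 25% and the liver control list lowest at 0 of 18.

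By chromosome, the density over the 1 to 20 kb zone averaged 2.22 per Mb (2.07 to 2.37) on the autosomes. Chromosome 11, with Per1, Stat3, Ikzf3 and Pecam1 among its hosts, had 86 peaks at 3.24 per Mb (2.59 to 3.9997), and chromosome 19 had 38 at 3.07 (2.17 to 4.21). Chromosome 7 had 35 at 1.29 (0.899 to 1.79) and chromosome 18 had 14 at 1.17 (0.638 to 1.958). The intervals of chromosomes 7, 11 and 18 did not include the autosomal value, and those of the other autosomes did. Differences between chromosomes were not tested.

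**Figure D5:**
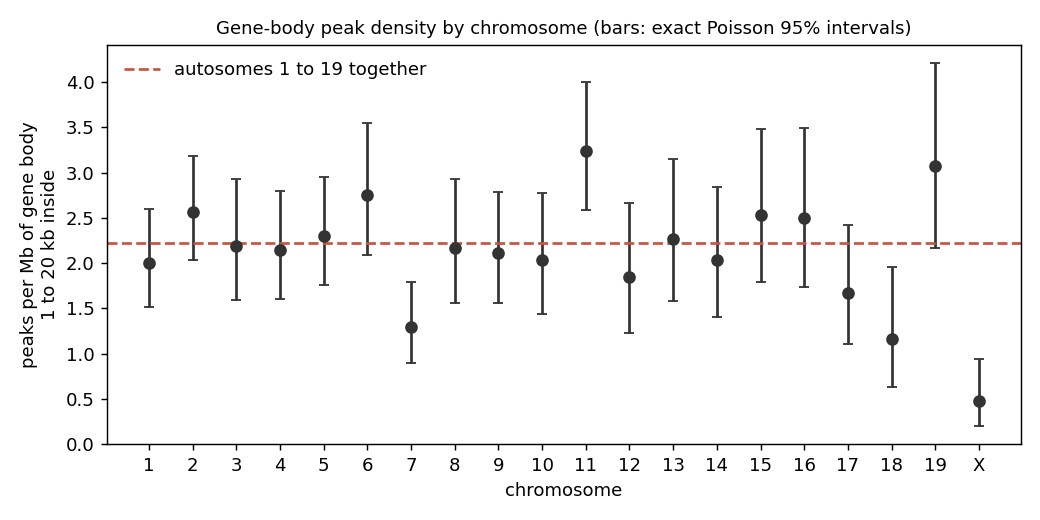
Peaks per Mb of gene body lying 1 to 20 kb inside protein-coding genes (y axis) on each chromosome (x axis), with exact Poisson 95% intervals; the dashed line is the value of autosomes 1 to 19 together, 2.22 per Mb. Chromosome 11 is highest at 3.24 and X lowest at 0.476 per Mb.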

How the data were processed

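The submitters' processing notes name Bowtie2 2.0.6, MACS2 2.0.10 and mm10, with no role for each. Libraries had 15 PCR cycles, per the labels' protocols. Neither the peak threshold nor any role of the control is stated in the labels. The deposited file gives 3 columns of positions, all intervals 400 bp wide, with no other value. Gene bodies came from a RefSeq table of GRCm38.p6 (rows starting below 3 Mb dropped), and strand and starts from RefSeq promoter windows, which matched 17274 of 21523 protein-coding genes and 658 of 816 hosts. The 14 peaks on chromosome 18 were not used where starts or strand were needed. Sides were split at the gene's middle. Densities divide peak counts by gene-body length at each distance. Of 572 list symbols 570 matched, 1 as a synonym.

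Tests were two-sided Fisher's exact tests with Woolf intervals, and exact conditional binomial tests of rates, each family with Benjamini-Hochberg adjustment and a threshold of 0.05. Shares carry exact Clopper-Pearson 95% intervals, and a share of 0 is given with the limit of 3 counts of the total. Density code was tested on simulated peaks. Named genes were those with 3 peaks, list genes with a peak, peaks next to the limits, the 3 closest pairs and hosts of printed sequences. One list gene with a peak is not reported here. Members and lists were chosen with earlier results of these data known. The planned motif test needs a genome and was not run. Densities by side and near starts were added after seeing the data. Python 3.11.15 and scipy 1.17.1 were used.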

Additional observations from a re-analysis of the deposited data

How the results depend on the processing

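Of 27 alternatives, 21 kept the direction and side of the threshold or stayed close to the reported value, and none turned the direction. With an outer limit of 10 kb, 559 peaks remained, by construction. The ratio of the density near the gene end to that at 10 to 20 kb was 1.14 with bands of 1 to 10 and 10 to 20 kb, and 1.08 in host genes of at least 40 kb, and neither passed the test. The odds ratio for the 5′ side against deeper peaks was 1.26 for peaks over 1 kb from any annotated start and 1.09 for peaks over 5 kb inside, without passing. The cause was not tested. The ratio of sides at 1 to 2 kb ranged from 3.01 to 4.96 and passed throughout. The share of start windows with a PAR motif was 7.69%, and 50.0% with TTGCNNAA. The last 2 alternatives for the 5′ share, those for the ratio of sides, for annotated starts and TTGCNNAA were chosen after seeing the data. No paired analysis was possible because 1 library was used, and no replicate could be left out. Depth is unknown and limits what the list could detect.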

Other observations

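Gene families read from symbols, and picked from a longer tally after the values were seen, are given here as values with no test. Of 16 Krüppel-like factor genes, 4 held one (Klf3, Klf7, Klf10 and Klf13; 25%, against 0.572 genes from length), at 3.95 kb from the 5′ end in Klf7 and 1.92 kb from the nearer end in Klf10. Of 33 Ube2 ubiquitin-conjugating enzyme genes, 5 did (15.2%; 1.86 from length). Among genes whose symbols begin with Nfat, Nfkb or Rel 3 of 22 did (13.6%, against 0.996 genes from length). Rel had its peak at 2.94 kb from the 5′ end, and Nfkb1 and Nfkbiz at 1.98 and 9.69 kb from the nearer end. Of 76 genes with Il-numbered symbols, mostly interleukins and their receptors, 5 held a peak (6.58%, 2.17 to 14.7%, against 3.06 genes from length). That interval includes the general share of 4.46%. Il15 and Il17ra had 2 peaks each, and Il6, Il10 and Il9r 1 each. The Il6 peak lay 1.72 kb from the 5′ end of a 6.86 kb gene. Olfactory receptor genes held none in 151 (up to 1.99%, 3 counts of the total) and vomeronasal receptor genes none in 142 (up to 2.11%), where length would give 2.53 and 6.08.

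Chromosome X carried 8 peaks at these depths, or 0.476 per Mb (0.206 to 0.939). No peak overlapped a miRNA hairpin; the nearest was Mir7080, 259 bp from the centre of the Cpne7 peak.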
